A study of Mus musculus with 2 samples.

Results

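The 33 miRNA genes described here are those of the deposited table whose mature miRNA has a number of 1000 or more, leaving out the block from miR-6896 to miR-7119, which holds many miRNAs cut from introns by splicing (mirtrons), and miR-1306, miR-3618 and miR-8094. They make up 33 of the 101 rows of the table, and each row names a different miRNA. The table comes from a nucleolin RNA immunoprecipitation with small RNA sequencing in wild-type C57 mouse CD4+ T cells from spleen, isolated as naïve cells and then stimulated by antibodies to CD3 and CD28. The series has 1 nucleolin immunoprecipitate and 1 input of these cells, both of the same genotype, and no label states the age of the mice. The design text speaks of an IgG control, while the second sample is labelled as input. The table belongs to neither sample: each row aligns a reference miRNA transcript with a reference mature miRNA, with no read count, so that depth is unknown, no level and no nucleolin over input ratio can be given, and the cell type could not be checked against its markers.

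A miRNA gene gives a hairpin that Drosha and Dicer cut into a duplex, whose strands are named 5p and 3p after their arm of the hairpin. Mirtrons bypass Drosha, because splicing of a short intron frees the hairpin. Bases 2 to 8 of a mature miRNA, the seed, pair with target mRNAs. High miRNA numbers were mostly assigned from deep sequencing, where fragments of other RNAs, such as small nucleolar RNAs (snoRNAs) or repeats, can resemble miRNAs. Nucleolin is an abundant nucleolar protein that binds precursor ribosomal RNA and has been found with the Drosha complex. SnoRNAs guide the modification of ribosomal RNA in the nucleolus, and small Cajal body RNAs (scaRNAs) do so for spliceosomal RNAs.

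The sequences below are RefSeq mature miRNAs of build GRCm38.p6, 5′ to 3′, with the seed in capitals. The first 5 lie in snoRNA or scaRNA genes, the next 5 at splice sites and the next 3 in coding exons. Of the last pair, miR-3473b lies wholly and miR-7649-3p partly in sequence marked as repeat.
miR-3068-3p: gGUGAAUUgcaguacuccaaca
miR-3069-3p: uUGGACACuaaguacugccaca
miR-3084-3p: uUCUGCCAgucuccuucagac
miR-5121: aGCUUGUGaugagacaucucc
miR-6516-5p: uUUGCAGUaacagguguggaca
miR-1982-5p: uUGGGAGGguccuggggagg
miR-3064-3p: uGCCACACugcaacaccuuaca
miR-3082-3p: cACAUGGCacucaacucugcag
miR-5132-3p: cUGAUGUUccccaucccgcag
miR-6418-3p: aCUGCAACcuccuuucuccagg
miR-1199-3p: uGCGGCCGgugcucagucggc
miR-7654-3p: cGAGCGGGagcgcgccucgucc
miR-8104: cAGGAUGAgguggagugcagcg
miR-3473b: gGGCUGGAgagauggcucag
miR-7649-3p: uCUCUCCAgcacugcuuguuucu

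The 33 matches spanned 19 to 24 nt (median 22 nt) at 100% identity. The match covered the full mature miRNA in 32 rows. The exception was miR-1194, matched over 19 of its 22 nt (86.4%), with an E-value of 3.84e-06. The longest matches, of 24 nt, were those of miR-3076-5p and miR-5046. The 68 other rows had matches of 20 to 25 nt, with the same median of 22 nt. At the lower edge of the rule, miR-1194 (19 nt) lies just inside and miR-877-3p (22 nt) just outside. At the edges of the mirtron block, miR-6516-5p (22 nt) and miR-7649-3p (23 nt) lie inside the rule, and miR-6900-5p and miR-7115-5p (24 nt each) outside it.

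The searched sequence of each row, the query, was taken from the end of the miRNA gene with the lower coordinate, up to a limit of 60 nt. It was 60 nt long in 29 rows and 56 to 59 nt, the whole gene, in the others: 56 nt for miR-7649-3p, 57 nt for miR-7658-3p, 58 nt for miR-7671-5p and 59 nt for miR-5046. Matches began between base 1 and base 36 of the query, with a median of 8, and 24 of 33 began within the first 12 bases. The other 9 began past base 20, from miR-1194 at base 21 to miR-7671-5p at base 36. Among the 7 miRNAs from miR-7649 to miR-7672, the match touched an end of the annotated gene in 7, and 6 began at base 1. Among the 26 other miRNAs it did so in 1, miR-5114. The gene models of these 7, 56 to 70 nt long, thus stop at the mature miRNA. This is not particular to them, since 16 of the 48 rows in the mirtron block also began at base 1.

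**Figure D1:**
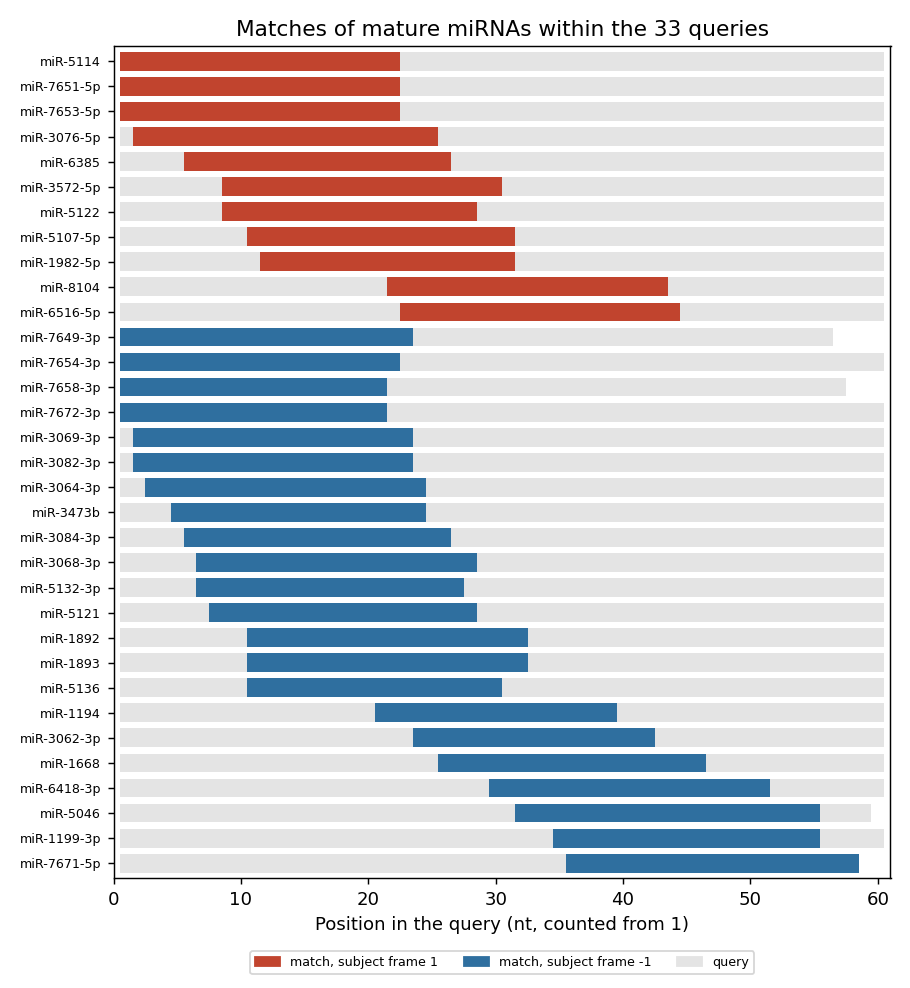
Position of the matched miRNA (coloured) within each of the 33 queries (grey), in nt from the first base of the query; red marks subject frame 1 and blue subject frame -1. Of the matches, 24 begin within the first 12 bases, and miR-7671-5p begins last, at base 36.

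The subject frame, the orientation of the miRNA in the alignment, was 1 in 11 rows and -1 in 22 (33.3% with frame 1, exact 95% interval 18% to 51.8%), and in 33 of 33 rows it followed the strand on which the gene lies. In the 68 other rows the frame was 1 in 30 (44.1%). Of the 33 names, 8 carried the 5p arm, 13 the 3p arm and 12 no arm. The 5p arm made up 38.1% of the named arms (8 of 21, exact 95% interval 18.1% to 61.6%), against 35 of 61 (57.4%) in the other rows. These intervals cover counting error only, and rows of a list are not replicates. Frame and arm went together, largely by construction. The query begins at the 5′ end of genes on the plus strand and at the 3′ end of genes on the minus strand. The arm shares are therefore no measure of arm choice. Of the 11 rows with frame 1, 7 named the 5p arm, 0 the 3p arm and 4 none. In the 68 other rows, 28 with frame 1 named the 5p arm and 0 the 3p arm. Of the 22 with frame -1, 13 named the 3p arm, 8 none, and miR-7671-5p alone the 5p arm, in a gene of 58 nt that the query covered whole. Both arms lay whole in the query at 4 genes, those of miR-3076-5p, miR-7649-3p, miR-7658-3p and miR-7671-5p, and the listed arm was the longer in 4 of 4, against 9 of 11 in the other rows. The 12 miRNAs without an arm lay on the 5′ side of their gene in 5 cases, miR-5046, miR-5114, miR-5122, miR-6385 and miR-8104, and on the 3′ side in 7.

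Of the 33 loci, 30 lay inside a gene on the same strand (90.9%, exact 95% interval 75.7% to 98.1%). Another 2 lay only on the opposite strand of a gene, and 1 in no gene of the types searched. Some loci with a host on the same strand also lay opposite a second gene, as did Mir1668 with Ddx39 and Mir3082 with Jmjd8. The host was protein-coding and on the same strand in 27. Of the 68 other rows, 65 lay inside a gene on the same strand, a protein-coding one in 63, so a host is no special feature of the members. The 32 hosts were all different, and 0 of them held another row of the table. Sorted by what the locus overlaps, 11 lay at a splice site or exon boundary of a protein-coding host, 7 in a UTR and 5 in a coding exon. Of the rest, 5 lay in a snoRNA or scaRNA gene, 3 inside an intron, 1 in an exon of a noncoding host and 1 outside the genes searched. Of the 48 rows in the mirtron block, 46 lay at a splice site or exon boundary (95.8%, against 33.3% here), 2 in a UTR and 0 in a coding exon or snoRNA gene. The 17 rows numbered below 1000 differed from that block as well, with 2 at a splice site (11.8%) and 3 in a coding exon (17.6%, against 15.2% here). No test was run on these differences, since rows are not replicates. Positions are on GRCm38 from GENCODE M21, counted from 1.

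Small nucleolar and Cajal body RNA genes overlapped 5 of the 33 loci on the same strand (15.2%), against 0 of the 68 other rows and 24 of all 2202 annotated miRNA genes (1.09%). In all 5 the matched miRNA lay wholly within the small RNA. Mir3069, on chromosome 12 from 105031077 to 105031141 (minus strand), lies in Scarna13, a scaRNA of 275 nt in an intron of Snhg10, a noncoding host gene of small RNAs. The listed miR-3069-3p covers bases 251 to 272 of Scarna13 and ends 3 nt before its 3′ end. Mir3068, on chromosome 12 from 87437679 to 87437757 (minus strand), overlaps a gene of type snoRNA that also bears the name Mir3068, in an intron of Alkbh1, which encodes a nucleic acid demethylase. The listed miR-3068-3p covers bases 112 to 133 of its 136 nt and also ends 3 nt before the 3′ end. The gene mmu-mir-3084-1, on chromosome 19 from 60774329 to 60774397 (minus strand), overlaps Snora19, of 132 nt, in an intron of Eif3a, which encodes a subunit of the translation initiation factor eIF3. The listed miR-3084-3p covers bases 108 to 128 of Snora19 and ends 4 nt before its 3′ end.

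These 3 miRNAs thus lie at the 3′ end of the small RNA, where H/ACA box RNAs carry their ACA box, a few bases from the end. Both miR-3068-3p and miR-3069-3p end in the letters ACA, as do 4 of the 28 members with a sequence and 35 of 1679 mouse mature miRNAs (2.08%). The other 2 that do so are miR-3064-3p and miR-6516-5p. Mir6516, on chromosome 11 from 117077348 to 117077457 (plus strand), shares 88 of its 110 nt with the scaRNA gene Gm26083, in the noncoding host Snhg20. The listed miR-6516-5p covers bases 128 to 149 of its 193 nt, 44 nt from the 3′ end. Mir5121, on chromosome 7 from 45126918 to 45126991 (minus strand), shares 30 of its 74 nt with Snord33, a C/D box snoRNA of 84 nt. It lies in Rpl13a, which encodes a protein of the large ribosomal subunit and holds 4 snoRNA genes. The listed miR-5121 covers bases 3 to 23 of Snord33. Its bases 7 to 12 read UGAUGA, the usual core of a C box, which 12 of 1679 mouse mature miRNAs hold (0.715%), only the miRNA strand being searched. A letter match is a description, not a functional box. Whether the library held the miRNA or the longer snoRNA was not tested, since no reads are at hand.

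**Figure D2:**
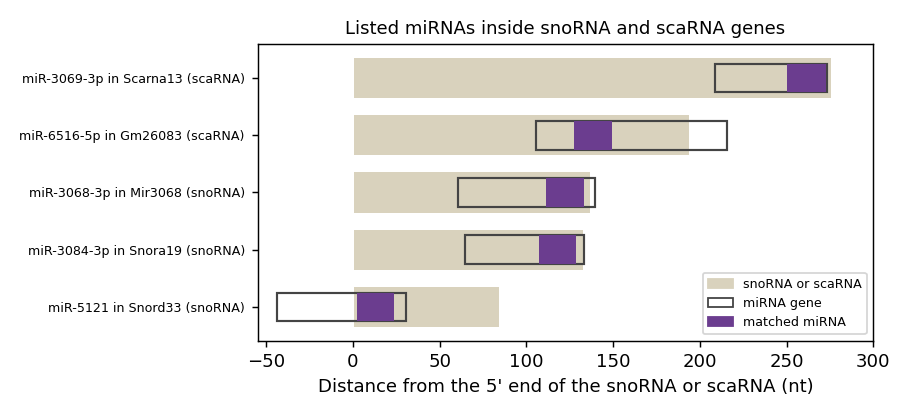
The 5 snoRNA or scaRNA genes that overlap a listed miRNA gene, drawn to scale in nt from their 5′ end, with the miRNA gene (outlined) and the matched miRNA (purple). In 3 of them the matched miRNA ends 3 or 4 nt before the 3′ end, and in Snord33 it begins at base 3.

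The group at splice sites and exon boundaries lay in hosts of many functions. In 10 of its 11 loci the miRNA gene began or ended no more than 12 nt from a splice site of at least 1 host transcript, and in 6 of these the intron was at most 100 nt long. By the same measure, such a short intron was found for 10 of the 48 rows in the mirtron block and 11 of all 68 other rows. Mir1982, on chromosome 10 from 80828797 to 80828870 (plus strand), is exactly an intron of 74 nt of Oaz1, which encodes the antizyme that limits polyamine synthesis. Its listed arm, miR-1982-5p, begins 11 nt after the 5′ splice site. Mir3062, on chromosome 11 from 68990574 to 68990678 (minus strand), holds a whole intron of 97 nt of Pfas, an enzyme of purine synthesis, with 6 nt of the exon before and 2 nt of the exon after it. Mir1668, on chromosome 8 from 83723878 to 83723984 (minus strand), likewise holds a whole intron of 76 nt of Adgre5, the leukocyte adhesion receptor CD97, with 6 nt of exon on its 5′ side and 25 nt on its 3′ side.

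Each of the other 3 short introns held most of a miRNA gene. These are an intron of 76 nt in Irak1, a kinase of interleukin-1 and Toll-like receptor signalling (Mir5132, chromosome X from 74023528 to 74023598, minus strand), with 65 of 71 nt of the gene inside it, one of 80 nt in Cnot3, a subunit of the CCR4-NOT deadenylase (Mir3572, chromosome 7 from 3655962 to 3656047, plus strand), with 71 of 86 nt, and one of 93 nt in Gnb2, a G protein beta subunit (Mir6418, chromosome 5 from 137529480 to 137529594, minus strand), with 85 of 115 nt. Longer introns end at the other 4 loci. Mir3082 lies at the end of an intron of 178 nt of Stub1, a ubiquitin ligase that acts with chaperones. Mir5107, on chromosome 18, lies at the end of an intron of 230 nt of Cd74, the invariant chain of MHC class II, and reaches 12 nt into the exon. Mir3064 lies at the end of an intron of 737 nt of Ddx5, an RNA helicase that is a cofactor of Drosha, and Mir3076 at the end of an intron of 962 nt of Tkt, which encodes transketolase. Other annotated transcripts of some hosts keep these stretches. Mir1982, Mir3082, Mir3572 and Mir5132 also lie wholly in an exon of a host transcript without coding sequence, and Mir3064 wholly in a UTR of another Ddx5 transcript.

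At some of these loci the mature miRNA itself stopped at or next to the end of the intron. The last base of miR-1668, miR-3082-3p and miR-5132-3p is the last base of the intron. The end of miR-3064-3p lies 1 nt before it, and that of miR-6418-3p 1 nt past it. With these, 5 of the 10 listed miRNAs ended within 1 nt of the 3′ splice site, and all 5 lie on the 3′ side of their gene. The same count was not made for the other rows, so it cannot be called particular to the members. Introns mostly end in AG, and miR-3082-3p and miR-5132-3p do so, as do 4 of 28 members with a sequence and 262 of 1679 mouse mature miRNAs (15.6%). The 11th locus is that of miR-1194, Gm25540, of whose 121 nt 49 lie in a 5′ UTR of Slc16a6, a monocarboxylate transporter. Its nearest splice site lies 2762 nt away, so the exon boundary that it crosses is the end of a transcript and not a splice site.

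**Figure D3:**
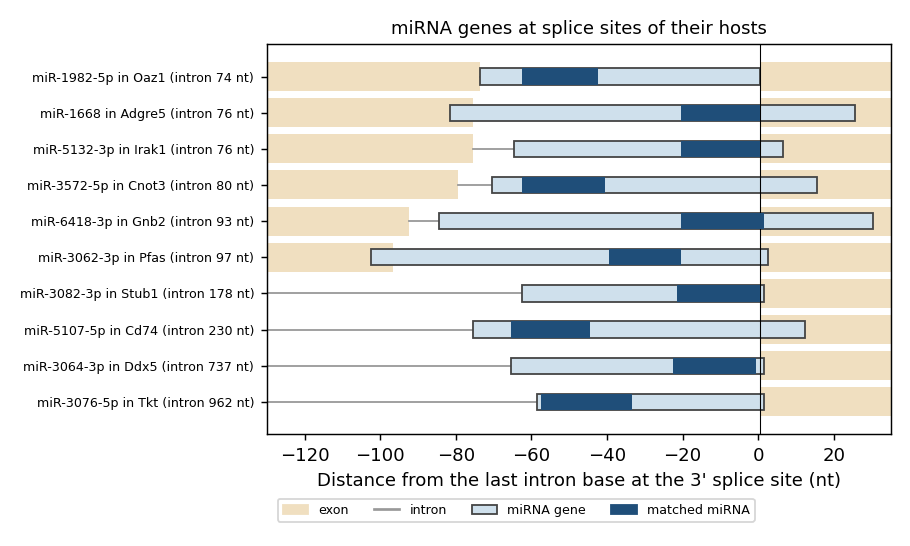
The 10 miRNA genes that begin or end within 12 nt of a splice site, aligned on the last base of the host intron (0 on the x axis, in nt), with exons in tan, introns as grey lines, the miRNA gene in light blue and the matched miRNA in dark blue. The matched miRNA ends within 1 nt of the intron end in 5 of them, and the intron is 74 to 97 nt long in the top 6 rows.

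Coding exons held 5 loci, and these were rich in GC, with a median of 68.3% and a range of 64.9% to 80%, against 56.2% over all 33 genes. All 119 nt of Mir1199, on chromosome 8 from 84011515 to 84011633 (minus strand), lie in coding sequence of 2210011C24Rik, and its GC content is 74.8%. All 70 nt of Mir7654, on chromosome 8 from 8690093 to 8690162 (minus strand), lie in coding sequence of Arglu1, a splicing regulator rich in arginine, and its GC content of 80% is the highest of the 33. All 101 nt of Mir8104, on chromosome 10 from 122679315 to 122679415 (plus strand), lie in coding sequence of Ppm1h, a protein phosphatase. Mir7658, of 57 nt, lies wholly in coding sequence of Plekhn1, on chromosome 4 from 156230059 to 156230115 (minus strand). Mir1893, on chromosome 18, has 52 of its 83 nt in coding sequence of Epc1, a subunit of the NuA4 histone acetyltransferase. The 3 sequences printed for this group, those of miR-1199-3p, miR-7654-3p and miR-8104, are 76.2%, 81.8% and 63.6% GC.

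UTRs held 7 loci. Those in 5′ UTRs included Mir7653 (61 nt, Tlcd1) and Mir7672 (62 nt, of which 56 nt UTR, Pde12, a phosphodiesterase that removes poly(A) in human mitochondria). In 3′ UTRs they were Mir1892 (80 nt, Sptssa, a small subunit of serine palmitoyltransferase), Mir5046 (59 nt, of which 53 nt UTR, Rps6ka4, the kinase MSK2) and Mir5114 (61 nt, Scd2, a stearoyl-CoA desaturase). Another, Mir6385, on chromosome 9 from 58221150 to 58221254 (plus strand), lies opposite the 3′ UTR of Pml, the scaffold of PML nuclear bodies, and so is antisense to it. In other transcripts of their hosts, 25 nt of Mir7653 and 30 nt of Mir5114 are coding sequence. For 13 of the 33 miRNAs the matched stretch also occurs in a spliced protein-coding transcript of the host, on its sense strand. These were the 5 in coding exons, the 6 sense UTR loci, miR-1194 and miR-3473b. It held for 10 of the 68 other rows, 2 of the 48 in the mirtron block and 5 of the 17 numbered below 1000. An RNA fragment of this sequence could thus come from the host mRNA or from the miRNA gene, and the table cannot tell these apart.

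Inside introns, away from splice sites, lay 3 loci. Mir7651 lies in an intron of 1151 nt of Zmiz2, a transcriptional coactivator related to SUMO ligases. Mir5136 lies opposite an intron of 1873 nt of Lbhd1, and miR-5136 and miR-6385 were the 2 members with a host on the opposite strand only. Gm27445, listed with miR-3473b, lies in an intron of 6212 nt of Epb41, a protein of the membrane skeleton. The noncoding host was Gm15987, which holds all 56 nt of Mir7649 and runs antisense to Clec2g, a C-type lectin. The locus with no host was Mir7671, on chromosome 11 from 53763597 to 53763654 (minus strand), between Il5, a cytokine of type 2 helper T cells, 38491 nt away, and Irf1, an interferon-regulated transcription factor, 6360 nt away.

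Repeats set 2 members apart from the rest. The matched stretch occurred at exactly 1 place of the assembled chromosomes for 29 of 33 members, at 2 places for miR-3084-3p and miR-7649-3p, at 2528 places for miR-1194 and at 25146 places for miR-3473b. Both of the latter stretches lie wholly in sequence that the assembly marks as repeat. They also occur in the transcripts of 159 and 358 other genes, 35 and 114 of them protein-coding. RefSeq places miR-3473b at Mir3473b on chromosome 10 (41670774 to 41670793, plus strand), whereas the listed transcript Gm27445 is on chromosome 4 (131992218 to 131992289, minus strand). For miR-7649-3p 78.3% of the matched bases are marked as repeat, and for the other 30 members 0%. Among the 68 other rows the stretch was at 1 place in 61, and it was marked as repeat wholly in 4 and partly in 4. Of the 17 rows numbered below 1000 it was so marked wholly in 3 and partly in 3, so repeats are not particular to the members. For miR-1194 and miR-3473b the listed gene is therefore 1 of many possible sources of the sequence.

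Seeds showed no family among the members. RefSeq sequences were found for 28 of 33 members, and 0 of these shared a seed with another row of the table. Over all mouse mature miRNAs, 5 of the 28 members shared a seed, as did 12 of 59 in the other rows. The 5 were miR-3062-3p with miR-7000-5p, miR-3473b with miR-3473e, miR-5114 with miR-7094b-2-5p, miR-7649-3p with miR-3473c, and miR-8104 with miR-6960-5p and miR-7093-5p. The highest GC content of these 28 sequences was that of miR-5122, 85%. The first base was U in 10, A in 9, C in 6 and G in 3. In the 59 other rows with a sequence it was U in 23, A in 14, C in 13 and G in 9. Members with no sequence printed here are miR-1194, miR-1668, miR-1893, miR-3076-5p and miR-5107-5p.

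The genes were 56 nt (Mir7649) to 121 nt (Gm25540) long, with a median of 74 nt, against 73 nt in the 68 other rows. Folded in silico, 30 of 33 formed a structure with 1 hairpin loop, against 61 of the 68 other rows. The exceptions among the members were Mir1199 with 2 loops and Mir1892 and Mir6516 with 3 each. The predicted minimum free energy ran from -24.5 to -71.7 kcal/mol per 100 nt, with a median of -39.6, against a median of -39.5 in the 68 other rows. The most stable by this measure were Mir7654 in Arglu1 (-71.7) and Mir5132 in Irak1 (-71.7), and the least stable was Mir1892 (-24.5), at 37.5% GC. Genes in snoRNAs or scaRNAs ranged from -27.7 to -39.6, and those in coding exons from -35.6 to -71.7. The matched miRNA was predicted to be paired over a median of 77.3% of its bases, against 78.3% in the 68 other rows. The lowest value among the members was 36.4%, for miR-7653-5p in Tlcd1, and the highest 95.5%, for miR-3572-5p in Cnot3. GC content and energy are not independent, since GC pairs are the more stable.

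**Figure D4:**
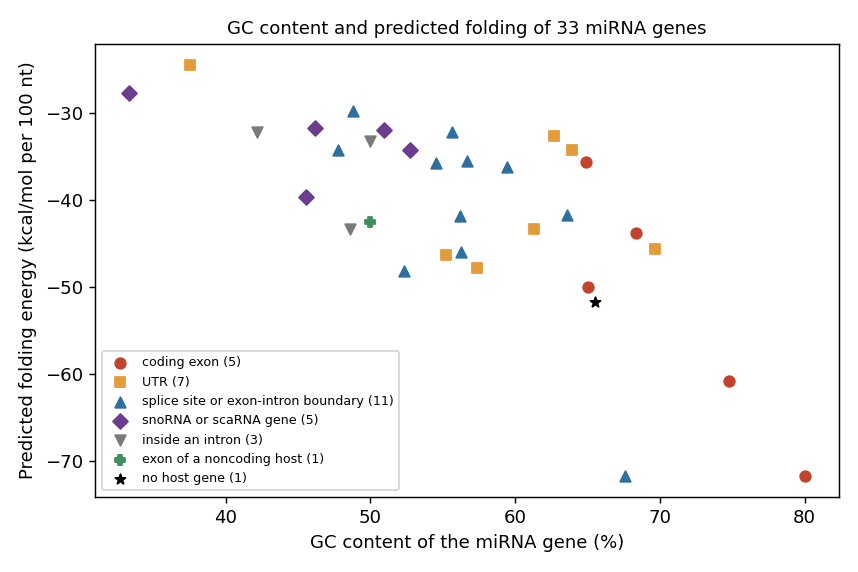
GC content (%) and predicted folding energy (kcal/mol per 100 nt) of the 33 miRNA genes, 1 point each, by what the locus overlaps. The 5 coding-exon genes lie at 64.9% to 80% GC, and Mir7654 and Mir5132 lowest on the y axis, at -71.7. The group at splice sites includes Gm25540, which crosses only the end of a transcript.

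Nucleolin is known to bind a short element in the loop of RNA hairpins. Its usual form was searched as the core CCCG with T or G before it and A or G after it, on both strands of the queries. It was found in 5 of 33 queries (15.2%), in 5 of the 68 other rows (7.35%) and in 155 of all 2202 annotated miRNA genes searched over the same part (7.04%). The 5 were those of miR-1893 and miR-8104 with GCCCGA, miR-5046 and miR-7654-3p with TCCCGG, and miR-1199-3p with GCCCGG, of which 4 lie in coding exons and 1 in a UTR, where GC content was high. Hits on the strand opposite the miRNA gene were counted too, and hits were not limited to loops. The shares are therefore no rate of the loop element in the RNA. These matches describe letters only and show no binding.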

How the data were processed

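Small RNA libraries (Illumina kit, Trizol extraction, per the labels' protocols) were sequenced from both samples. The authors deposited 1 table of BLAST alignments for the whole series. Identity is a percent per the file headers, which also name a score, a bit score and an E-value for each alignment. Per the submitters' processing notes the build was mm9, while the design text names mm10. No source used here gives the search settings or the choice of transcripts.

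Transcripts were matched to GENCODE M21 (GRCm38) and miRNAs to RefSeq sequences. Each query was rebuilt from its gene, and its length equalled the deposited one in 101 of 101 rows. This length is the same from either end of the gene, so it does not check which end was used. For the 27 members with a RefSeq miRNA at the listed locus, match positions counted from the lower coordinate equalled the RefSeq positions. A host contains the whole locus, same strand and protein-coding genes first. Hosts were sought only among protein-coding, lincRNA, antisense, sense intronic and processed-transcript genes. Loci in snoRNA or scaRNA genes were set apart before other contexts. UTRs, coding exons and exon boundaries were read from protein-coding transcripts of the host, and intron ends, within 3 nt, from all its transcripts. Genes were folded with RNAfold 2.7.2. Exact copies were counted on both strands of 21 chromosomes. Functions were tested on simulated data. Every member was named. The members and lists were chosen with earlier results of these data known. No test between samples was possible, with 1 sample per group. The host gene of 1 locus in a UTR is not reported here.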

Additional observations from a re-analysis of the deposited data

How the results depend on the processing

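The number of members was 33, and 31 with an E-value of at most 1e-06, 27 with numbers of 2000 and above, and 18 when only alignments of at least 22 nt were kept, because the other 15 are shorter. The 5p share ran from 36.8% to 46.2% over the settings computed for it, the share with frame 1 from 33.3% to 38.9%, and the share in a host gene on the same strand from 81.8% to 90.9%. Counting distinct names could change nothing, since each row names a different miRNA. The alternatives use the same rows or part of them and are no test of stability. Keeping members matched at 1 genomic place, chosen after seeing the data, left 29 members. The share of loci that overlap an exon or lie at the end of an intron was 78.8% (26 of 33), and ran from 72.7%, over protein-coding transcripts alone, to 82.8%, with members at 1 genomic place. Depth is unknown, so absence from the table says nothing of absence from the library. No paired analysis was possible because there is only 1 sample of each kind and no column belongs to either.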

Other observations

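The second genomic copy of miR-3084-3p, on chromosome 19 from 24942240 to 24942260 (minus strand), lies in the snoRNA gene Gm23658 and the miRNA gene Mir3084-1 within Cbwd1, so both copies lie in snoRNA genes. The second copy of miR-7649-3p, on chromosome 6 from 128931793 to 128931815 (minus strand), lies in the miRNA gene Gm27336. Among the 378 pairs of members with a sequence, the longest complementary stretch, 10 nt, was between miR-3473b and miR-7649-3p, both with matched bases in repeat sequence.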
